A study of Mus musculus with 22 samples.

Results

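The core circadian clock genes were followed in mouse liver: Arntl, Clock, Npas2, Per1, Per2, Per3, Cry1, Cry2, Nr1d1 and Nr1d2. They were chosen by gene symbol, and all 10 had a value among the 13392 genes of the series. RNA of non-tumour liver was measured in 22 mice, all male C57BL/6J. Each mouse had its own array of the type Affymetrix HT MG-430. The values are log2 expression values, 1 for each gene and mouse, so that a difference of 1 is a doubling.

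The first group held 10 mice with chronic liver damage that were treated with nintedanib, an inhibitor of growth factor receptor kinases, at 50 mg/kg. The second group held 9 mice with the same damage that were given vehicle, and treatment lasted 5 weeks in both. Damage was caused by an injection of the carcinogen N-nitrosodiethylamine (DEN) and weekly carbon tetrachloride (CCl4), which together lead to fibrosis and hepatocellular carcinoma. The third group held 3 control mice with healthy liver, injected with saline and oil and given vehicle by their titles. Mice are named here by the number in their sample title: 82 to 91 for nintedanib, 76 to 81 and 92 to 94 for vehicle, and 4, 49 and 50 for the controls. The labels say that mice were killed at various times, and give neither the hour of collection nor a batch.

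The clock of liver cells is a loop of transcription factors and their own inhibitors. BMAL1 (the product of Arntl) pairs with CLOCK or NPAS2, binds E-boxes and switches on the Per, Cry and Nr1d genes. PER and CRY proteins then block that pair, while REV-ERBα and REV-ERBβ (the products of Nr1d1 and Nr1d2) repress Arntl, Clock, Npas2 and Cry1 through ROR elements. In mouse liver the RNA of Arntl is therefore high at the time of day when that of Per2 and of output genes such as Dbp is low, and the reverse holds near the other end of the day.

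Motifs of the binding elements of this loop were looked for in the start regions of the genes themselves. RefSeq windows of 300 bases, from 250 before to 50 after an annotated start (GRCm38.p6), were found for 9 of the 10 genes, 13 windows in all. The windows below show matches to motifs through which activators and repressors of the clock are known to act. Matched letters are in capitals, 5′ to 3′ on the gene's strand.
Arntl, ROR element, chr7:113207528-113207557, plus strand: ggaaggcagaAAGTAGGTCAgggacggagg
Per1, E-box, chr11:69098726-69098845, plus strand: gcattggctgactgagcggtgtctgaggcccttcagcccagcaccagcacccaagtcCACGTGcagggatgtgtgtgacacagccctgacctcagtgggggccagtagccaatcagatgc
Cry1, E-box and a variant of it, chr10:85185062-85185181, minus strand: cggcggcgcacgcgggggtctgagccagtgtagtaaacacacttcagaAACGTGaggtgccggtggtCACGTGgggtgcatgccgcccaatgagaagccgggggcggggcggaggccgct
Nr1d1, E-box variant, chr11:98775378-98775497, minus strand: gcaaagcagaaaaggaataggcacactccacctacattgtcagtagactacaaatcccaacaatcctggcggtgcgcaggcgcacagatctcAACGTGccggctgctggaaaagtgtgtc
Per3, D-boxes, chr4:151044784-151044903, minus strand: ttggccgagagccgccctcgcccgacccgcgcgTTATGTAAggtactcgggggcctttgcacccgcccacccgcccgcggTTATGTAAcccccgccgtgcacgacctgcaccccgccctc

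Both strands were searched for 4 motifs, and no match in a clock gene overlapped another. No match was found for Clock, Npas2 or Nr1d2, and Per2 had no window. Arntl and Per1 have more than 1 annotated start, and the window shown is that of 1 of them. The E-box CACGTG was in 2 of the 13 windows of clock genes (Per1 and Cry1), against 7.15% of 32851 windows of all genes. Its variant CACGTT, shown above as read on the other strand, was in 3 of 13 (Cry1, Cry2 and Nr1d1), against 4.68%. The ROR element (AGGTCA after the flank AANT) was in 1 of 13, for Arntl at position 27 after the start, against 0.219%. The D-box TTATGTAA, to which DBP, TEF and HLF are known to bind, was in 1 of 13, for Per3 at positions -205 and -158 from the start, against 0.938%. A match describes the letters of a window and is not evidence of binding.

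Before any comparison of treatments, the clock genes split the mice by title number. Array medians lay between 2.83 and 3.09, and nintedanib arrays 89 and 91 stood apart, correlating with the rest at a median of 0.950 and 0.948, against at least 0.958 for the other 20 arrays. In the 3 vehicle mice 92 to 94, set against vehicle mice 76 to 81, 7 of the 10 clock genes had values that did not overlap, while 6.24% of all genes did. Per2, Per3, Cry2 and Nr1d2 were the 4 higher ones (3.16% of all genes were higher), and Arntl, Clock and Cry1 the 3 lower ones (3.08%). All of these mice had the same label. Taking all groups together, mice 83 to 94 lay apart from the other 10 mice in 6 of the 10 genes, against 0.784% of all genes. These were Per2, Per3, Cry2 and Nr1d2, higher (0.463% of all genes), and Arntl and Clock, lower (0.321%). The boundary was noticed through clock genes, so these counts are a description with no test. Of the 10 nintedanib mice only mouse 82 lay on the other side of the boundary, against 6 of the 9 vehicle mice, so treatment and title number overlapped strongly. The controls have title numbers of their own, and a difference in collection between them and the damaged livers cannot be told apart from the damage.

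**Figure D1:**
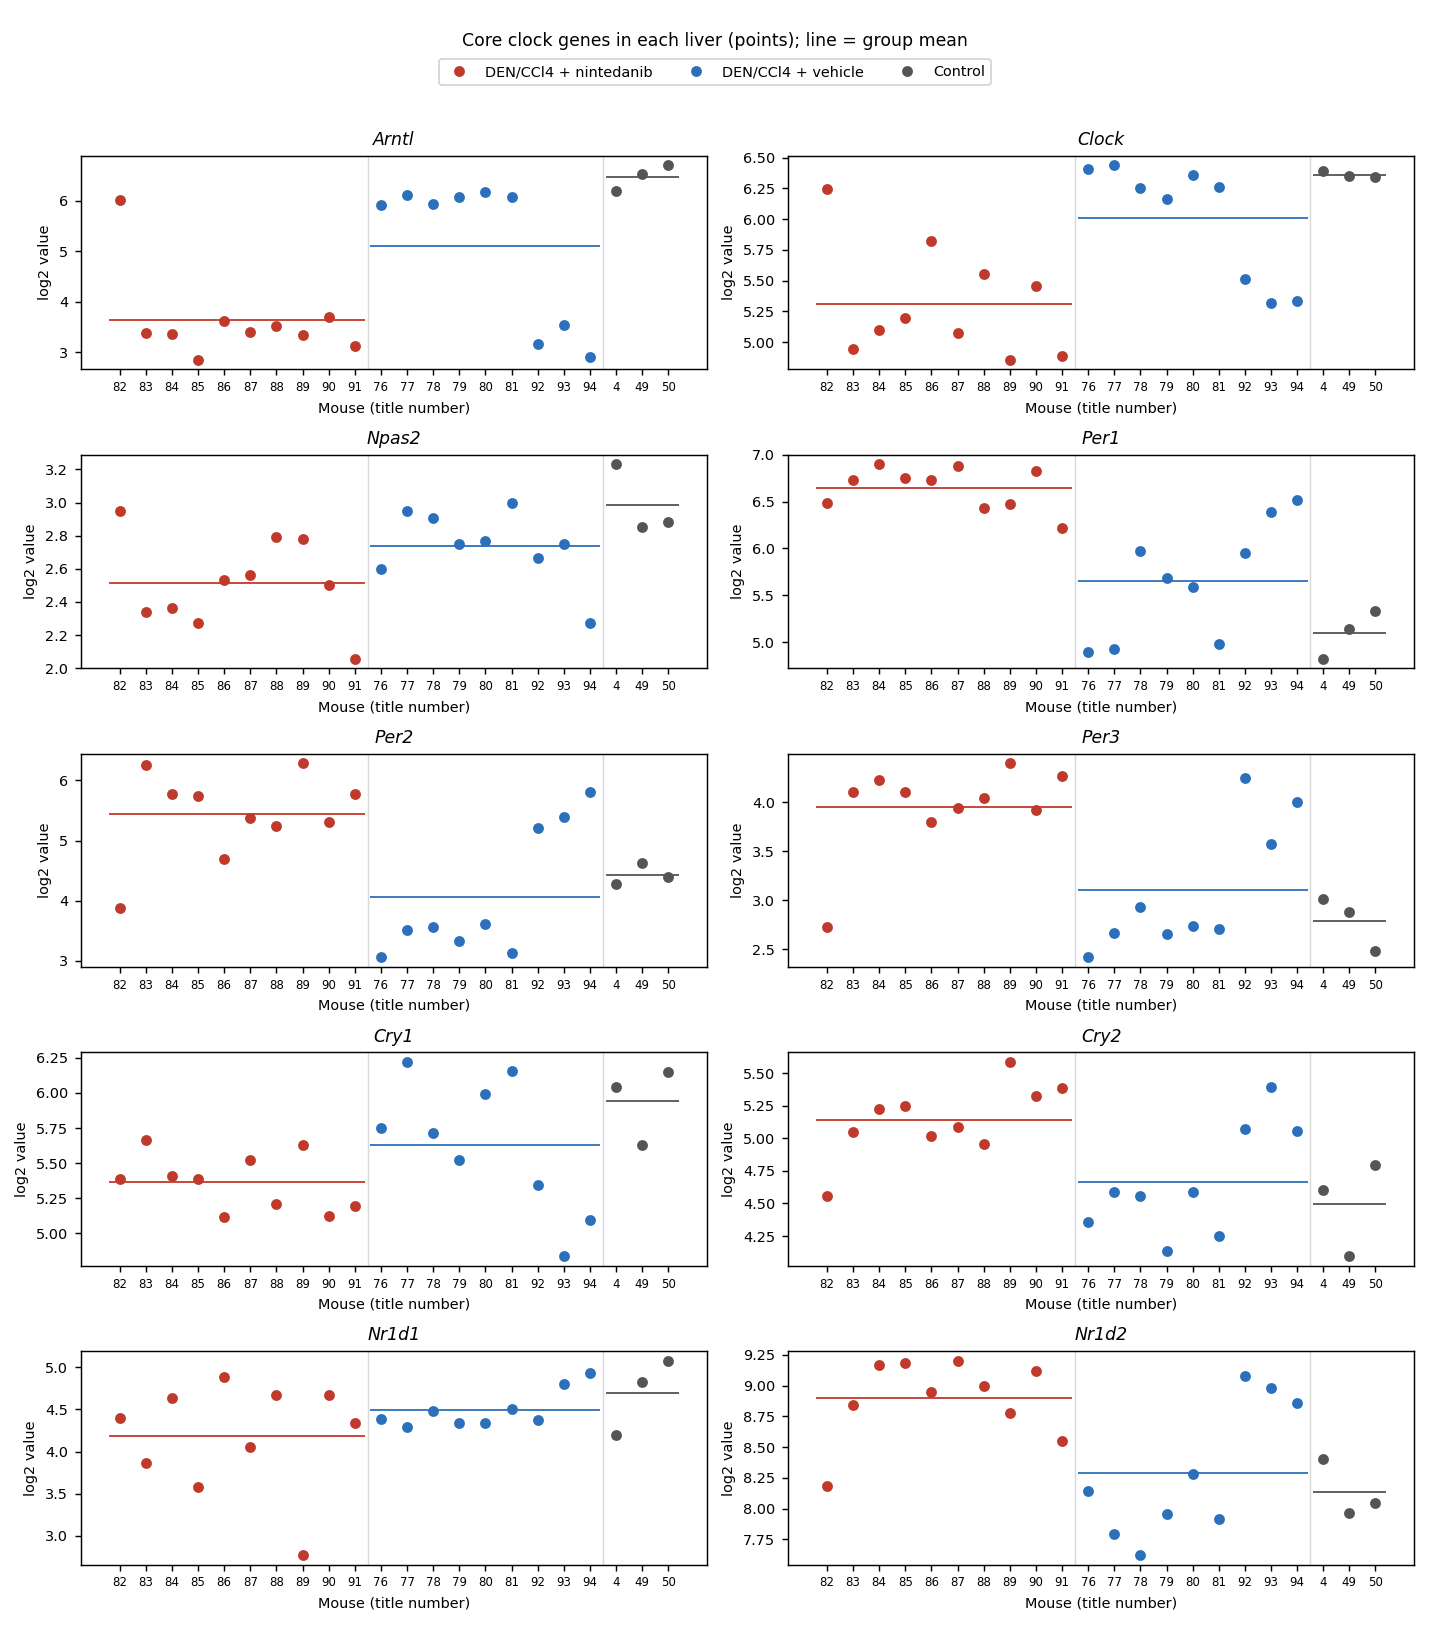
Log2 value (vertical axes) of the 10 core clock genes in each of 22 livers (points, by title number), with a line at each group's mean. For Arntl, mouse 82 at 6.01 stands far above the other 9 nintedanib mice, and vehicle mice 92 to 94, at 2.91 to 3.53, stand far below vehicle mice 76 to 81.

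Arntl and Clock, the genes of the activating pair, had low levels in most nintedanib mice. Arntl had a lowest value of 2.86, a median of 3.40 and a highest of 6.01 in nintedanib livers, and 2.91, 5.93 and 6.17 in vehicle livers. The controls had 6.20, 6.53 and 6.69. The high nintedanib value was that of mouse 82, while the other 9 reached at most 3.71. The low vehicle values were those of mice 92 to 94, with 3.17, 3.53 and 2.91, so the nintedanib and vehicle groups overlapped while every control was above every damaged liver. Clock had a lowest value of 4.86, a median of 5.15 and a highest of 6.24 in nintedanib livers, and 5.32, 6.25 and 6.44 in vehicle livers. The controls had 6.39, 6.35 and 6.34. Mouse 82 was again the highest nintedanib mouse, and mice 92 to 94 (5.51, 5.32 and 5.33) were again the lowest vehicle mice. All controls were above all nintedanib mice, but within the range of vehicle mice.

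Npas2, which can stand in for CLOCK in the pair, had values close to the array medians. It had 2.06, 2.52 and 2.95 (lowest, median and highest) in nintedanib livers, and 2.27, 2.75 and 3.00 in vehicle livers. The controls had 3.23, 2.85 and 2.88. All groups overlapped their neighbours.

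The 3 Period genes, whose products inhibit the pair, did not all follow Arntl: Per2 and Per3 were high in the mice with low Arntl, while Per1 was also high in mouse 82. Per1 had 6.22, 6.73 and 6.90 (lowest, median and highest) in nintedanib livers, and 4.89, 5.68 and 6.52 in vehicle livers. The controls had 4.82, 5.14 and 5.33. Mouse 82 had 6.48 for Per1, above all 6 vehicle mice 76 to 81, which reached at most 5.97, although its Arntl value of 6.01 lay among theirs. Per1 was not alone in this. Mouse 82 was also above these vehicle mice for Per2 (3.88, against at most 3.61) and below them for Cry1 (5.39, against at least 5.52). For Clock, Npas2, Per3, Cry2, Nr1d1 and Nr1d2 it lay within their range. All nintedanib mice were above all controls, and the overlap with vehicle came from mice 93 and 94, at 6.39 and 6.52.

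Per2 had 3.88, 5.55 and 6.29 (lowest, median and highest) in nintedanib livers, and 3.06, 3.56 and 5.81 in vehicle livers. The controls had 4.28, 4.64 and 4.39. Mouse 82 was the lowest nintedanib mouse, and vehicle mice 92 to 94 (5.21, 5.39 and 5.81) were the highest of theirs. The controls lay between, above every vehicle mouse from 76 to 81 (at most 3.61) and below every mouse from 83 to 94. For Per3 the lowest, median and highest values were 2.73, 4.08 and 4.40 in nintedanib livers, and 2.42, 2.74 and 4.25 in vehicle livers. The controls had 3.02, 2.88 and 2.48, within the range of vehicle mice. Mouse 82 had the 2.73, whereas the other 9 nintedanib mice had at least 3.79.

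The 2 Cryptochrome genes, whose products are the strongest inhibitors of the pair, went different ways. Cry1 had 5.12, 5.38 and 5.66 (lowest, median and highest) in nintedanib livers, and 4.84, 5.72 and 6.22 in vehicle livers. The controls had 6.04, 5.63 and 6.15. Vehicle mice 92 to 94 held the 3 lowest vehicle values, at 5.35, 4.84 and 5.09, and control 49 lay within the nintedanib range. Cry2 had 4.55, 5.16 and 5.58 in nintedanib livers, and 4.14, 4.58 and 5.39 in vehicle livers. The controls had 4.61, 4.09 and 4.80. Here mouse 82 was the lowest nintedanib mouse and mice 92 to 94, at 5.05 to 5.39, were the highest vehicle mice.

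The 2 genes of the repressors REV-ERBα and REV-ERBβ did not share a pattern. Nr1d2 had 8.19, 8.97 and 9.20 (lowest, median and highest) in nintedanib livers, and 7.62, 8.14 and 9.08 in vehicle livers. The controls had 8.40, 7.96 and 8.05. It divided mice 83 to 94, at 8.55 or more, from all other mice, at 8.40 or less. Nr1d1 had 2.77, 4.37 and 4.89 in nintedanib livers, and 4.29, 4.39 and 4.93 in vehicle livers. The controls had 4.20, 4.82 and 5.07. Its spread was widest within mice 83 to 94, since nintedanib mice 83, 85 and 89 had 3.86, 3.58 and 2.77 while the other 7 had at least 4.05.

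Over the 22 mice the 10 clock genes had a median range of 1.78, against 0.967 over all genes. Arntl had a range of 3.83 and Per2 of 3.23, wider than 99.7% and 99.4% of all genes. Npas2 had the narrowest range of the 10, at 1.17.

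Nintedanib was set against vehicle to ask what the drug did in damaged liver. Per1 was higher in nintedanib livers, and Arntl, Clock, Per2 and Per3 had large differences that did not pass the test. Differences are given as limma estimates ± standard error, and a gene passed at a Benjamini-Hochberg adjusted p under 0.05 over all genes. Of the 10 clock genes 1 passed, against 0.687% of all genes in either direction and 0.411% higher. Per1 rose by 0.99 ± 0.18 (adjusted p = 0.00848), and no other clock gene passed, although 7 of the 10 had an unadjusted p under 0.05. Counts at an unadjusted p, here and below, stand without the share of all genes, except within mice 83 to 94. They are therefore no result about the genes counted. The difference was 1.36 ± 0.35 for Per2 (adjusted p = 0.0644), 0.85 ± 0.22 for Per3 (adjusted p = 0.0725) and 0.61 ± 0.18 for Nr1d2 (adjusted p = 0.119). It was -1.46 ± 0.45 for Arntl (adjusted p = 0.142) and -0.69 ± 0.18 for Clock (adjusted p = 0.0723). Cry2 differed by 0.48 ± 0.15, Nr1d1 by -0.31 ± 0.20, Cry1 by -0.26 ± 0.15 and Npas2 by -0.22 ± 0.11, with adjusted p-values between 0.162 and 0.655. The Nr1d1 difference was -0.15 without array 89, which stood apart. Leaving out vehicle mouse 92, 93 or 94 gave 5 genes that passed, and leaving out nintedanib mouse 82 gave 6, but these are the mice singled out by their clock gene values. The share of all genes that passed was not counted in those fits. The median over the 10 genes was 0.13, against 0.014 over all genes.

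These differences moved with title number. The runs were noticed through clock gene values, so counts and p-values of differences by run, here and below, are a description with no test. The run of mice 76 to 82 held 1 nintedanib mouse and 6 vehicle mice. With the run of title numbers (76 to 82, or 83 to 94) as a block, 0 of the 10 genes passed limma at an adjusted p under 0.05, 1 had an unadjusted p under 0.05, and 0.0373% of all genes passed. Arntl then differed by 0.11 ± 0.13, Clock by -0.15 ± 0.14 and Per2 by 0.24 ± 0.21. Per1 differed by 0.59 ± 0.19 (adjusted p = 0.582). Within mice 83 to 94 alone, with 9 nintedanib mice against 3 vehicle mice, no clock gene and no other gene (0% of all genes) passed limma, while 1 clock gene and 695 genes in all had an unadjusted p under 0.05. There Per1 differed by 0.37 ± 0.16 (adjusted p = 0.955), Nr1d1 by -0.54 ± 0.34, Arntl by 0.17 ± 0.17 and Nr1d2 by 0.0033 ± 0.14. Without nintedanib arrays 89 and 91 the Per1 difference within that run was 0.46 ± 0.14 (adjusted p = 0.637) and that of Nr1d1 was -0.36.

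Vehicle-treated damaged livers were set against controls to ask what DEN and CCl4 did. No clock gene passed this test, and vehicle mice lay on both sides of the controls for Per2. Of the 10 genes 0 passed limma, with 2 at an unadjusted p under 0.05, against 2.52% of all genes passing. The widest difference was that of Arntl, at -1.38 ± 0.65 (adjusted p = 0.337), followed by Per1 at 0.56 ± 0.27 (adjusted p = 0.340). The other 8 genes differed by -0.36 to 0.31, with adjusted p-values between 0.536 and 0.875. The median over the 10 genes was -0.23, against -0.022 over all genes. Arntl was the 1 clock gene whose groups did not overlap, being lower in all vehicle mice, as were 2.27% of all genes.

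Vehicle mice 92 to 94 had been noticed through the values of these same clock genes, Per2 among them, so differences without them are a description with no test. In a fit of the other 6 vehicle mice and the 3 controls, added after the data were seen, Per2 differed by -1.07 ± 0.15, Arntl by -0.43 ± 0.13 and Per1 by 0.24 ± 0.24. In the planned fit, which kept the nintedanib mice, the standard errors of these same differences were 0.35, 0.41 and 0.21. The 6 vehicle values of Per2, 3.06 to 3.61, lay below the control values of 4.28 to 4.64, and the 3 that were left out lay above them.

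Nintedanib livers were also set against controls, which the comparison of vehicle with control shares, so that these comparisons are not independent. Both genes of the activating pair were lower in nintedanib livers, and 2 of the 3 Period genes were higher. Of the 10 genes 4 passed, against 5.85% of all genes, with 2 higher (2.87%) and 2 lower (2.99%). Arntl fell by 2.84 ± 0.64 (adjusted p = 0.00702) and Clock fell by 1.05 ± 0.26 (adjusted p = 0.0147). Per1 rose by 1.55 ± 0.26 (adjusted p = 0.00049) and Per3 rose by 1.16 ± 0.32 (adjusted p = 0.0296). Their groups did not overlap for Arntl and Clock, both lower, as for 2.44% of all genes, and for Per1, higher, as for 2.47%.

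The other 6 genes did not pass in the fit of all groups. Per2 differed by 1.0 ± 0.50 (adjusted p = 0.315), Nr1d2 by 0.76 ± 0.26 (adjusted p = 0.0866) and Cry2 by 0.64 ± 0.22 (adjusted p = 0.0853). The differences were -0.58 ± 0.21 for Cry1 (adjusted p = 0.127), -0.51 ± 0.29 for Nr1d1 (adjusted p = 0.404) and -0.47 ± 0.16 for Npas2 (adjusted p = 0.0816). In a fit of these 2 groups alone 6 of the 10 passed, against 4.53% of all genes, with Cry1 (adjusted p = 0.0304) and Nr1d2 (adjusted p = 0.0275) added. Mouse 82 stood apart through its own clock gene values, so differences without it are a description with no test: with these 2 groups alone they were -3.10 ± 0.17 for Arntl and 1.17 ± 0.26 for Per2. With all groups in the fit, 7 passed without mouse 82, 2 without control 4 or 49 and 1 without control 50. The share of all genes was not counted in these fits. Without control 4, 49 or 50, the adjusted p of Clock was 0.0774, 0.0547 or 0.0714 and that of Per3 was 0.0748, 0.0780 or 0.191, and without control 50 that of Arntl was 0.0545. Only the call of Per1 held whichever of the 13 mice was left out.

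**Figure D2:**
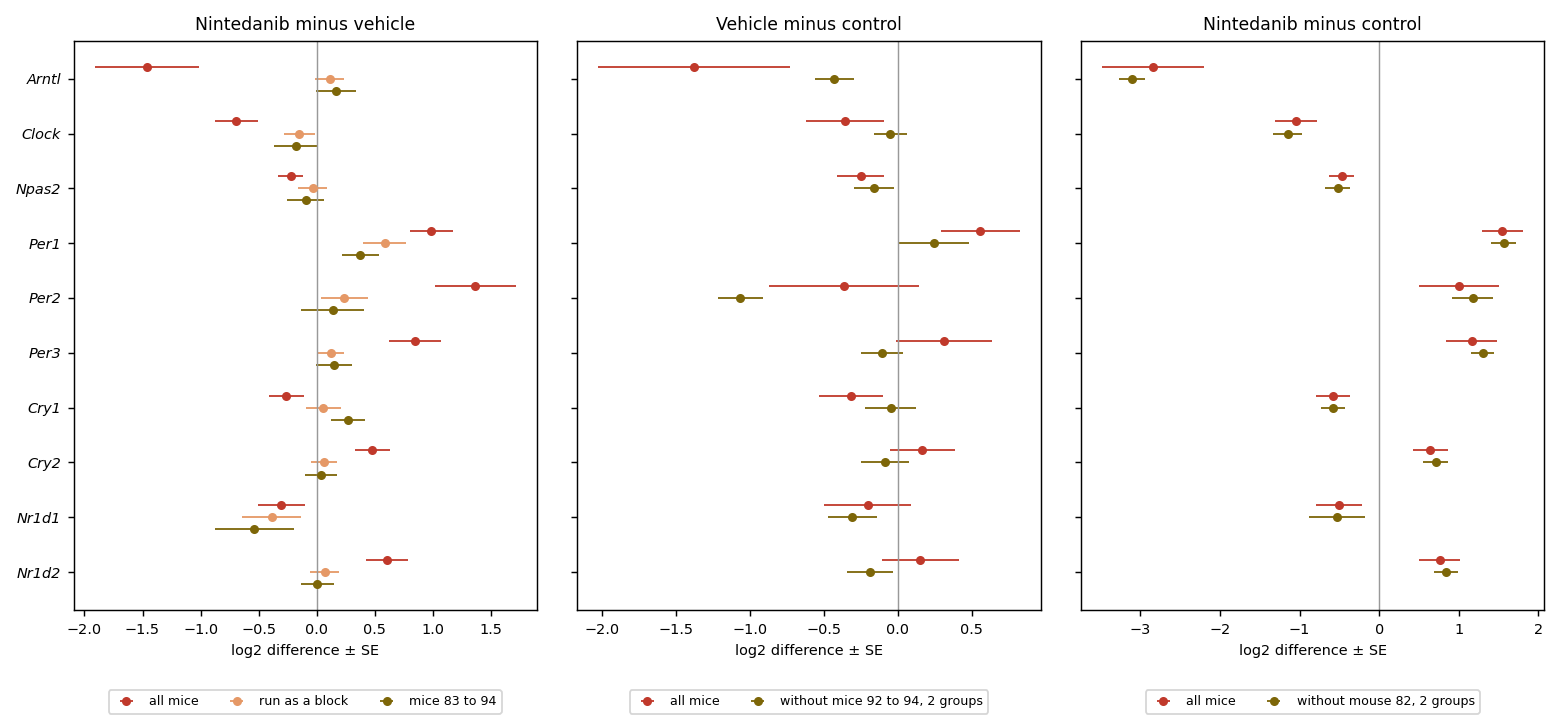
Log2 difference ± standard error (horizontal axes) of each clock gene (rows) for nintedanib minus vehicle, vehicle minus control and nintedanib minus control, with all mice and with the mice named in each legend. In the first panel Arntl lies at -1.46 with all mice but at 0.11 with the run as a block, whereas Per1 lies above 0 in all 3 fits.

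Genes of the wider clock pathway were counted from lists. Of the regulators that join the loop from outside, 6 of 7 were measured. By limma 0 of the 6 passed for nintedanib against vehicle (2 had an unadjusted p under 0.05), beside 0.687% of all genes. For vehicle against control 0 passed (0 unadjusted), beside 2.52%, and for nintedanib against control 1 passed, beside 5.85%. Ciart, a repressor of the BMAL1 and CLOCK pair, had 3.15, 5.43 and 5.93 (lowest, median and highest) in nintedanib livers, and 1.95, 2.49 and 5.44 in vehicle livers. It had at most 2.89 in controls, and rose by 2.39 ± 0.66 in nintedanib livers against controls (adjusted p = 0.0281). Against vehicle it differed by 1.87 ± 0.46 (adjusted p = 0.0534). The lowest nintedanib value was again that of mouse 82, though it lay above vehicle mice 76 to 81, which had at most 2.61.

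Output genes, which the clock proteins drive, were higher in nintedanib livers in part. Of 13 measured, 6 were higher and 0 lower for nintedanib against vehicle, beside 0.411% of all genes higher. For nintedanib against control 10 were higher and 1 lower, beside 2.87% of all genes higher and 2.99% lower. For vehicle against control 0 passed (3 at an unadjusted p under 0.05), beside 2.52% of all genes. The median difference against vehicle was 0.99, beside 0.014 over all genes. Noct, a phosphatase with a strong daily rhythm, had 7.16, 8.52 and 8.94 (lowest, median and highest) in nintedanib livers, and 5.69, 6.74 and 8.24 in vehicle livers. It rose by 1.61 ± 0.29 (adjusted p = 0.00757). Por, the electron donor of cytochromes P450, rose by 0.94 ± 0.18 and Tspan4, a membrane protein, by 0.59 ± 0.11 (adjusted p = 0.0112 for both). With the run as a block, and within mice 83 to 94, 0 of the 13 passed limma, with 5 at an unadjusted p under 0.05 in either case. Noct then differed by 0.75 ± 0.20 (adjusted p = 0.401) with the block and by 0.71 ± 0.16 (adjusted p = 0.511) within the run.

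Kinases and ubiquitin ligases that set the lifetime of clock proteins showed no calls by limma, with 0 of 5 measured genes (of 16 listed) in each of the 3 comparisons, beside 0.687%, 2.52% and 5.85% of all genes for nintedanib against vehicle, vehicle against control and nintedanib against control. An unadjusted p under 0.05 was found for 1 of them against vehicle, 1 for vehicle against control and 0 for nintedanib against control. Of the cofactors 4 of 14 were measured, and 1 was higher for nintedanib, both against vehicle (beside 0.411% of all genes) and against control (beside 2.87%). Ppargc1a, a coactivator that stimulates Arntl transcription with ROR proteins, had 5.12, 5.67 and 6.63 (lowest, median and highest) in nintedanib livers, and 4.46, 4.90 and 5.53 in vehicle livers. It rose by 0.83 ± 0.15 (adjusted p = 0.00727). With the run as a block the difference was 0.70 ± 0.19 (adjusted p = 0.401), and within mice 83 to 94 it was 0.61 ± 0.24. Mouse 82, at 5.73, lay above all vehicle mice for this gene.

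**Figure D3:**
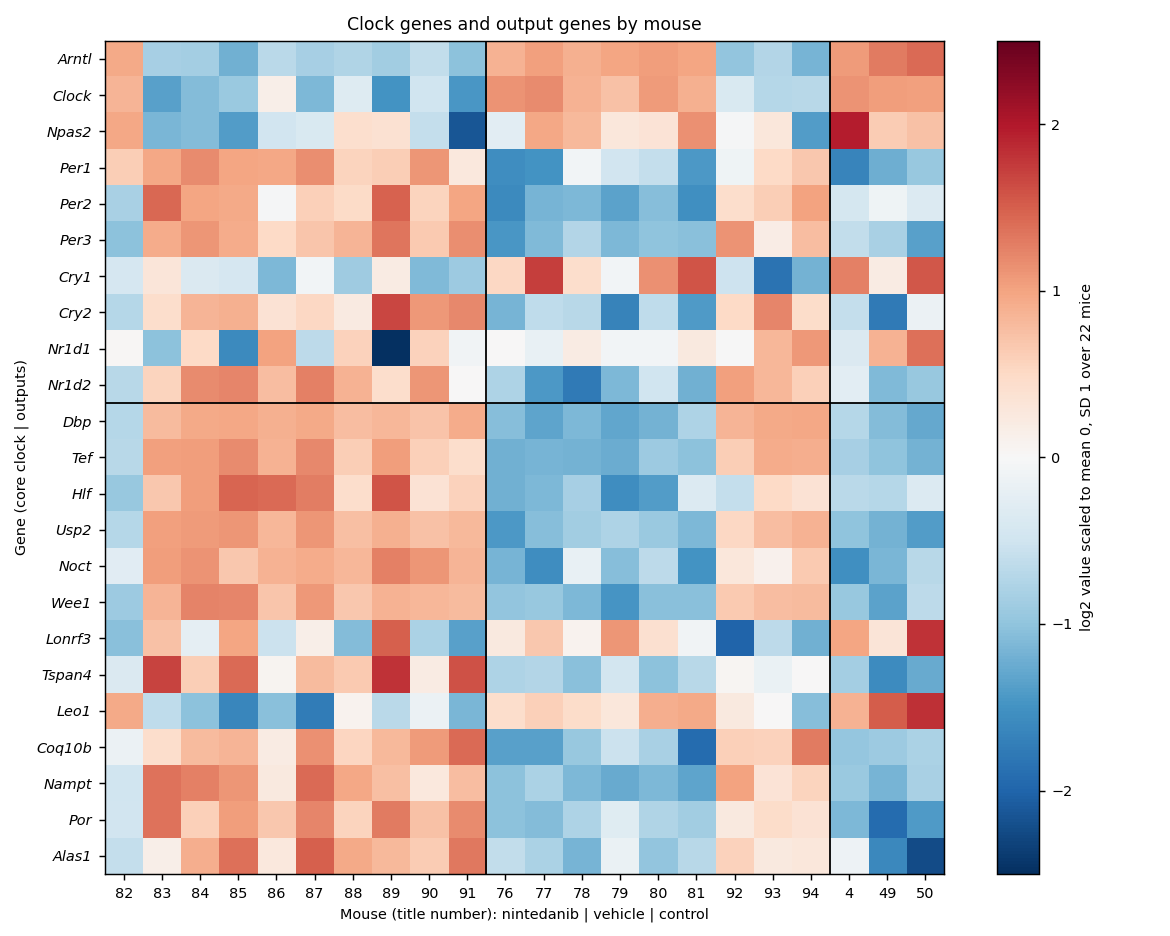
Log2 values of clock genes and output genes (rows), each scaled to mean 0 and SD 1 over the 22 mice (columns, by title number: nintedanib, vehicle, control). Red is above a gene's own mean and blue below it. The columns of mice 83 to 94 share their colours for Arntl, Per2, Per3 and most output genes, and the column of mouse 82 is coloured like those of mice 76 to 81 for Arntl, Clock and Per3 but not for Per1.

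The genes whose pattern over the 22 mice was nearest to that of Arntl were found by the mean absolute difference of scaled values, for which the median over all genes was 1.13 SD. Slc30a10, a manganese exporter, was the nearest at 0.213, followed by Chka (0.226), Asap2 (0.235), Clpx (0.235) and Lgalsl (0.256). With the pattern of Arntl turned over, Usp2 was nearest at 0.163, followed by Dbp (0.173), Wee1 (0.176), Nrg4 (0.200) and Tef (0.224). Usp2 had 7.50 to 8.63 in mice 83 to 94 and 3.88 to 5.21 in the other 10 mice. For Nr1d1 the nearest gene, Capn2, was at 0.525, against a median of 1.08 over all genes, so no gene followed it as closely.

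Within mice 83 to 94 the clock genes still varied, and their relations were computed for all 45 pairs over these 12 mice. This run was noticed through clock gene values, those of Clock and Per2 among them, so the p-values of these relations are a description with no test. The permutations did not keep nintedanib and vehicle mice apart. Clock and Per2 ran opposite to each other, with Pearson's r = -0.875 (permutation p = 0.00019, adjusted over the 45 pairs 0.00855) and Spearman's rho = -0.832 (permutation p = 0.00141, adjusted 0.0317). Without the 2 mice farthest from the median of Clock, r was -0.743. Without arrays 89 and 91 it was -0.865, and in the 9 nintedanib mice alone it was -0.896. Mouse 86 had the highest Clock value of the run, 5.83, and the lowest Per2 value, 4.70, while mouse 89 had 4.86 and 6.29.

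Cry1 and Nr1d1 also ran opposite by rank, with Spearman's rho = -0.860 (permutation p = 0.00068, adjusted 0.0306). Pearson's r was -0.764 (permutation p = 0.00335, adjusted 0.0754), and -0.826 without the 2 mice farthest from the median of Cry1. It was -0.753 without arrays 89 and 91, and -0.762 in the 9 nintedanib mice. No other pair had an adjusted permutation p under 0.05 by either measure, and Arntl was in none of the pairs that did.

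**Figure D4:**
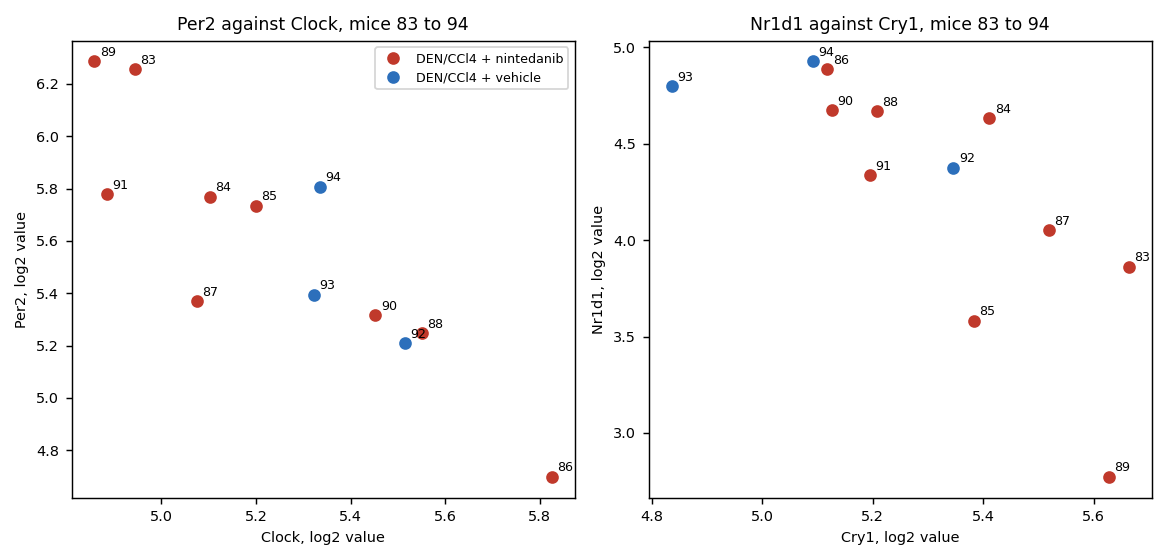
Log2 value of Per2 against Clock (left) and of Nr1d1 against Cry1 (right) in mice 83 to 94, each point a mouse with its title number, coloured by treatment. The points of both panels run from upper left to lower right, with r = -0.875 and r = -0.764, and vehicle mice lie among or near the nintedanib mice.

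Markers of other cell types were summarised as the mean log2 value of each list in each mouse. Endothelial markers (8 of 12 measured) had means of 4.56 to 4.93 in nintedanib livers, 4.88 to 5.26 in vehicle livers and 4.45 to 4.62 in controls. Macrophage markers (13 of 14) had 6.26 to 6.84 in nintedanib livers, 6.26 to 7.35 in vehicle livers and 5.78 to 6.17 in controls. Stellate cell and fibroblast markers (11 of 13) had 5.40 to 5.93 in nintedanib livers, 5.39 to 5.86 in vehicle livers and 4.85 to 4.95 in controls. Markers of cholangiocytes (7 of 7) had 3.81 to 4.44 in nintedanib livers, 3.76 to 4.28 in vehicle livers and 3.76 to 3.92 in controls. Of lymphocyte markers (11 of 12) the means were 3.02 to 3.39 in nintedanib livers, 3.19 to 3.71 in vehicle livers and 2.97 to 3.08 in controls, and of neutrophil markers (6 of 7) they were 4.04 to 5.05 in nintedanib livers, 4.29 to 4.63 in vehicle livers and 3.66 to 3.98 in controls. Their part in the differences between groups was not tested, and in bulk tissue fewer cells of a type and less RNA per cell cannot be told apart. Between vehicle mice 92 to 94 and 76 to 81, the ranges of all these lists overlapped, at 6.26 to 6.80 against 6.26 to 7.35 for macrophage and 4.90 to 4.96 against 4.88 to 5.26 for endothelial markers. For neutrophil markers the overlap was slight, at 4.29 to 4.35 against 4.33 to 4.63. Of 16 hepatocyte markers only Tat, an amino acid enzyme of hepatocytes, had a value among the genes used here. Tat had 10.4 to 11.2 in nintedanib livers, 10.2 to 10.9 in vehicle livers and 10.3 to 10.9 in controls.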

How the data were processed

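Total RNA of 20 mg frozen tissue was used for each array, per the labels' protocols. The authors deposited log2 values from RMA (robust multiarray algorithm), summarised over custom probe sets that stand for 1 Entrez gene each, per the series' design text. Quantile normalization, a step of RMA, hides a change of all genes together. Symbols came by Entrez ID from RefSeq (GRCm38.p6), which named 13242 of 13392 genes, and 150 stayed unnamed.

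A model of 3 group means was fitted to all 22 arrays (limma 3.58.1, R 4.3.3, lmFit then eBayes, 2-sided, 19 residual degrees of freedom) and adjusted by Benjamini-Hochberg over all genes. No filter was applied to the genes with a value. Whether other genes of the array had been left out before was not known. The number of arrays, above all the 3 controls, limits the precision. Correlations used 100000 permutations.

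The genes, lists and tests were chosen with earlier results of these data known. All clock genes are named, up to 3 genes of each pathway list by p in the comparisons with or of vehicle, and the 5 nearest to a pattern, not all of which are printed. List genes without a value were not analysed here. Alternatives changed scaling, filter, variance model, array weights, threshold and the mice used.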

Additional observations from a re-analysis of the deposited data

Results flagged for a closer look

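In 20 sets of values (each clock gene in nintedanib and in vehicle mice), the highest or lowest mouse was set against its nearest neighbour, relative to the whole range of the group. Chance singles out about 1 in 20 groups when groups are independent, but these sets share the same mice. In all, 2 values were singled out, both in nintedanib mouse 82. This mouse had been noticed through its clock gene values, so the count is a description with no test. The rule uses the nearest neighbour, so it could not single out several mice that stood apart together. Arntl stood at 6.01 in this mouse, with the next highest nintedanib mouse at 3.71. Per3 stood at 2.73, with the next lowest at 3.79.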

How the results depend on the processing

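No paired analysis was possible because each title number belongs to a single mouse and none is shared between groups. Median centring, a repeated quantile normalization, leaving out the dimmest 25% of genes, trended or robust variance and array weights kept the direction and the call of every clock gene in all 3 comparisons. For nintedanib against vehicle the count of clock genes that passed was 1 (0.687% of all genes). It was 0 with the run as a block (0.0373% of all genes) and 0 within mice 83 to 94 (0%). Without arrays 89 and 91 it was also 0 within that run (0%). It was 1 to 6 when each mouse was left out, with 5 without vehicle mouse 92, 93 or 94 and 6 without mouse 82. The share of all genes was not counted in fits that left out a single mouse, here and below. The sign turned for Arntl (0.11, 0.17 and 0.21) and Cry1 (0.056, 0.27 and 0.26) in the block, in mice 83 to 94 and in these without arrays 89 and 91, where Cry2 also turned (-0.042). For vehicle against control the count was 0 whichever mouse was left out. It was 1 without mice 92 to 94 in the fit of these groups alone (2.64% of all genes). Without mice 92 to 94, Per3 (-0.11), Cry2 (-0.087) and Nr1d2 (-0.19) turned in both fits, as did Cry2 without control 49, where single mice left out gave -0.035 to 0.32. For nintedanib against control the count was 4 (5.85% of all genes), and 2 at an adjusted p under 0.01 (2.63%). It was 6 in a fit of these groups alone (4.53%) and 8 in that fit without mouse 82 (5.03%). Each mouse left out in turn gave 1 to 7, with 2 without control 4 or 49, 1 without control 50 and 7 without mouse 82. Without arrays 89 and 91 Per3 no longer passed (adjusted p = 0.0546). The runs of title numbers, mouse 82 and mice 92 to 94 were noticed through clock gene values. Counts by run or without these mice therefore support neither a difference nor its absence. The cause of these changes was not tested.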

Other observations

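Nfil3, a repressor known to be driven in antiphase to Dbp, was uneven within the run of mice 83 to 94, with groups that overlapped. It had 6.11, 6.85 and 8.33 (lowest, median and highest) in nintedanib mice 83 to 91, and 5.54, 5.57 and 6.39 in vehicle mice 92 to 94. The limma difference there was 1.27 ± 0.40 and did not pass (adjusted p = 0.882). Mouse 82 had 8.17, and vehicle mice 76 to 81 had 7.19 to 7.78. This gene was singled out after its values were seen.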
